A study of Homo sapiens with 6 samples.

Results

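The genes described here encode the respiratory chain and the ATP synthase, the machinery of oxidative phosphorylation, and were chosen by name. They are the protein-coding genes whose symbols begin with NDUFA, NDUFB, NDUFC, NDUFS, NDUFV, UQCR, COX4, COX5, COX6, COX7, COX8 or ATP5, together with SDHA, SDHB, SDHC, SDHD, CYC1 and the 13 protein-coding genes of the mitochondrial genome. In all, 113 of 35580 genes with a transcript in the tables met the rule, 100 encoded in the nucleus and 13 in mitochondrial DNA. The prefix NDUFA also takes in the NDUFAF genes, which encode assembly factors of complex I and not subunits, and these are counted apart. The cells were Rh30, a human alveolar rhabdomyosarcoma line that carries the PAX3-FOXO1 fusion in both groups. In the siDDX5 group the RNA helicase DDX5 had been knocked down, and the other group was labelled control, with no further word on the control agent or the time of harvest. Each group held 3 libraries of poly(A)-selected mRNA, described by the submitters as biological replicates of this single cell line.

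Oxidative phosphorylation needs proteins from both genomes. Complex I (NADH dehydrogenase), complex III (cytochrome bc1), complex IV (cytochrome c oxidase) and the ATP synthase each join subunits made in the mitochondrion with subunits imported from the cytosol, while complex II (succinate dehydrogenase) is wholly nuclear. Electrons pass from complexes I and II through ubiquinone, complex III and cytochrome c to complex IV, and the proton gradient built on the way drives the ATP synthase. The mitochondrial genes are transcribed as long polycistronic RNAs from both strands, and nearly all of them lie on the same strand, with MT-ND6 on the other. In the nucleus, many of the genes carry binding motifs for NRF1, for the ETS factor GABP and for YY1 close to their start sites.

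The sequences below show places where mitochondrial genes share bases, since reads from shared bases cannot be given to a single gene. Position 9207, the last of MT-ATP6 and the first of MT-CO3, is also shared and is not shown. MT-ATP8 and MT-ATP6, a pair of ATP synthase subunits, overlap by 46 bases, which is 22.2% of the length of MT-ATP8. MT-ND4L and MT-ND4, a pair of complex I core subunits, overlap by 7 bases. Capitals mark the bases that belong to both genes, on the plus strand of the mitochondrial chromosome in GRCh38 at positions 8503 to 8596 and 10736 to 10790, with 24 bases on each side.
MT-ATP8 and MT-ATP6: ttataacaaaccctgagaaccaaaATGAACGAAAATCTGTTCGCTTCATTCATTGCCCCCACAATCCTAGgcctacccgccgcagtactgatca
MT-ND4L and MT-ND4: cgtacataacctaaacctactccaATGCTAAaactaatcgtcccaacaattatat

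For the nuclear genes, RefSeq promoters of GRCh38.p14 were searched from 250 bases before to 50 bases after each start site, and 78 of the 100 nuclear members had an entry. GCGCATGCG, a match to the NRF1 motif, stood in 11 of the 78 promoters (14.1%), against 2.10% of 27305 promoters in the table. CCGGAAGT, the core that ETS factors such as GABP bind, stood in 10 (12.8%), against 4.43%. AAGATGGCG, a match to the YY1 motif, stood in 8 (10.3%), against 1.85%. Both strands were searched, and at least 1 of the 3 stood in 26 promoters (33.3%), against 7.86% of all. The 6 windows below, of 30 bases each, show these matches in capitals for genes of 4 complexes.
ATP5ME, NRF1 match, chr4:674335-674364, minus strand: gccgctgacgGCGCATGCGtgcgcccagct
NDUFS7, NRF1 match on the opposite strand, chr19:1383823-1383852, plus strand: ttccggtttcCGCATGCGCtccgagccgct
SDHD, NRF1 match, chr11:112086753-112086782, plus strand: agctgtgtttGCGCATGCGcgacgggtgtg
SDHD, ETS match on the opposite strand, chr11:112086784-112086813, plus strand: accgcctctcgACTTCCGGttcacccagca
UQCRH, ETS match on the opposite strand, chr1:46303640-46303669, plus strand: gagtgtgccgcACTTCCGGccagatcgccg
UQCRC1, YY1 match, chr3:48609604-48609633, minus strand: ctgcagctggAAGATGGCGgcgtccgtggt

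The labels held in the data. DDX5 stood at 1352, 1434 and 1137 CPM (TMM-scaled counts as a share of the library total) in control replicates 1 to 3 and at 549, 504 and 396 CPM in siDDX5 replicates 1 to 3, a log2 fold change of -1.44 (edgeR adjusted p = 0.0106). Muscle-lineage markers were present in every library, MYOD1 at 147 to 226 CPM and DES at 381 to 619 CPM, while MYF6 did not exceed 0.148 CPM. Markers of other cell types were low. Fibroblast markers summed to 17.0 to 22.7 CPM in control and 19.0 to 22.1 CPM in siDDX5 libraries, most of it COL1A1. Endothelial markers summed to 11.2 to 14.3 and 11.8 to 15.8 CPM, most of it PECAM1. In both sets the groups overlapped. The 3 immune markers summed to 14.0 to 16.8 CPM in control and 10.8 to 13.4 CPM in siDDX5 libraries, most of it CD68, with CD3E at or below 0.055 CPM. The 4 epithelial markers summed to 1.52 to 2.24 and 2.35 to 2.87 CPM, most of it CDH1, with KRT19 at 0 throughout. The immune and the epithelial ranges did not overlap between the groups, and whether this bears on the results below was not tested. Depth ran from 18202402 to 26156858 estimated counts, with the siDDX5 libraries all shallower than the controls.

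No respiratory chain gene of either genome passed the test for a change after DDX5 knockdown. Of the 108 members that passed the filter on low counts, 0 of 95 nuclear and 0 of 13 mitochondrial genes passed edgeR's quasi-likelihood test at a Benjamini-Hochberg adjusted p under 0.05, as 0.164% of the 15223 genes tested did. The count of members stayed at 0 with a term for the replicate number (a replicate block), while 2.59% of all genes passed. DESeq2 called 0 of the 104 members to which it gave an adjusted p, against 2.99% of all genes with one. At an unadjusted p under 0.05, 3 members were higher in siDDX5 cells (COX7A2L, NDUFB3 and ATP5F1E) and 2 lower (NDUFS8 and NDUFA10), against 5.37% and 6% of all genes. With the block these counts were 15 and 4 of 108, against 10.2% of all genes higher and 10.3% lower.

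The estimates were small as well as uncalled. Log2 fold changes ran from -0.52 (NDUFS8) to 0.49 (UQCRHL). For 72 of the 108 members the 95% interval of the fold change lay wholly within 1.5-fold in either direction, and for 106 it lay within 2-fold. Of all 15223 genes, 8189 and 12811 met the same bounds. Fold changes were above 0 for 69 of 95 nuclear and 11 of 13 mitochondrial members, against 49.6% of all genes. The median log2 fold change was 0.15 for the nuclear members, 0.08 for the mitochondrial members and 0.00 for all genes.

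**Figure D1:**
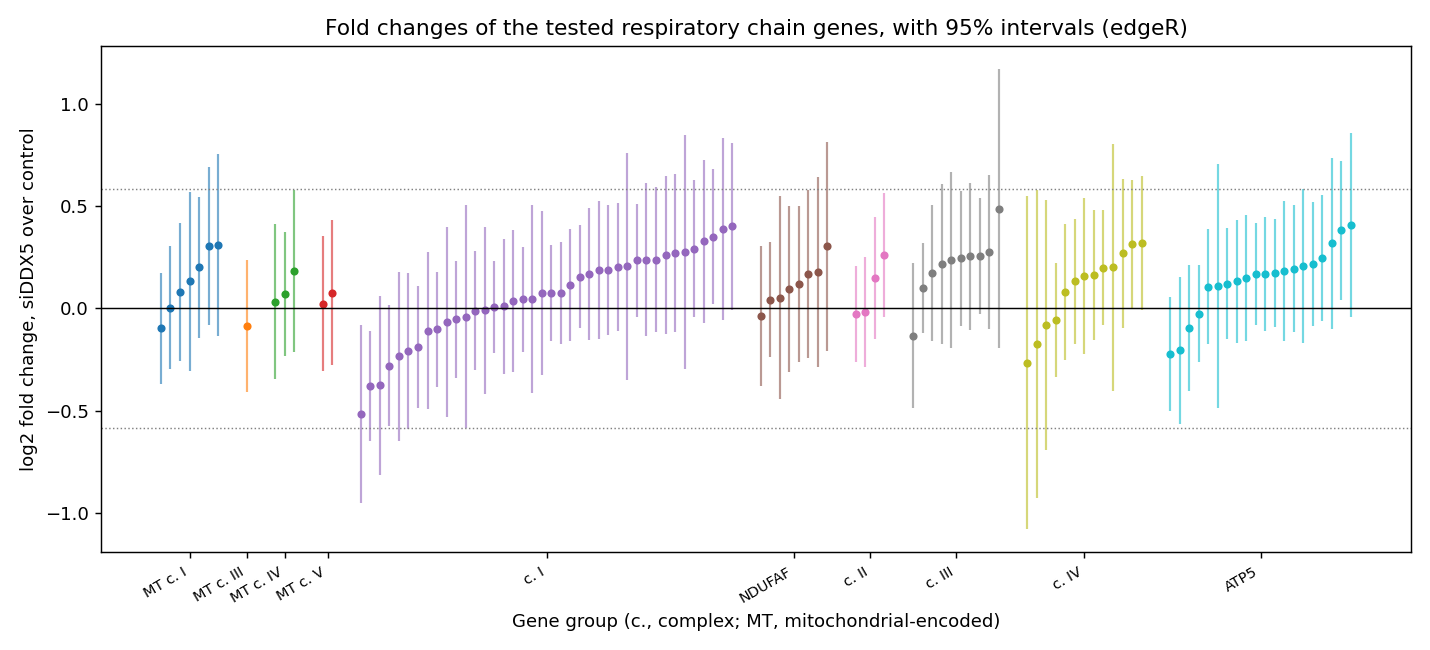
Log2 fold change of siDDX5 over control (vertical axis) for the 108 members tested, ordered by size within each gene group on the horizontal axis; dots are edgeR estimates, bars their 95% intervals, and dotted lines mark a 1.5-fold change. Most dots lie a little above 0, and nearly all bars cross it.

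This small excess rested largely on a single library. The level of siDDX5 replicate 2 was the highest of the 6 libraries for 75 of the 108 members, 64 nuclear and 11 mitochondrial, against 21.9% of all genes. Relative to each gene's mean over the 6 libraries, the median nuclear member lay at -0.02, -0.02 and -0.15 on the log2 scale in control replicates 1 to 3, and at -0.15, 0.30 and 0.02 in siDDX5 replicates 1 to 3. The median mitochondrial member lay at -0.16, 0.06 and -0.04 in control and at -0.21, 0.35 and -0.01 in siDDX5 libraries. Both genomes were highest in siDDX5 replicate 2 and lowest in siDDX5 replicate 1, where the nuclear median was level with that of control replicate 3, and the groups overlapped.

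Without siDDX5 replicate 2, the median log2 fold change fell to 0.02 for the nuclear members, with 54 of 95 above 0. For the mitochondrial members it became -0.07, with 3 of 13 above 0. Without siDDX5 replicate 1 the medians were 0.23 and 0.20, and at an unadjusted p under 0.05 30 of 96 nuclear members were higher and 1 lower, against 6.08% and 7.05% of all genes in that fit, with 0 members called after edgeR's adjustment. Between libraries of the same number, siDDX5 minus control, the nuclear median was -0.12, 0.35 and 0.19 for replicates 1, 2 and 3. Higher values in the siDDX5 library were seen for 23, 77 and 74 of 95 nuclear genes. The mitochondrial median of these differences was -0.02, 0.29 and 0.02, with 6, 11 and 7 of 13 genes higher. The direction therefore differed between pairs in both genomes.

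**Figure D2:**
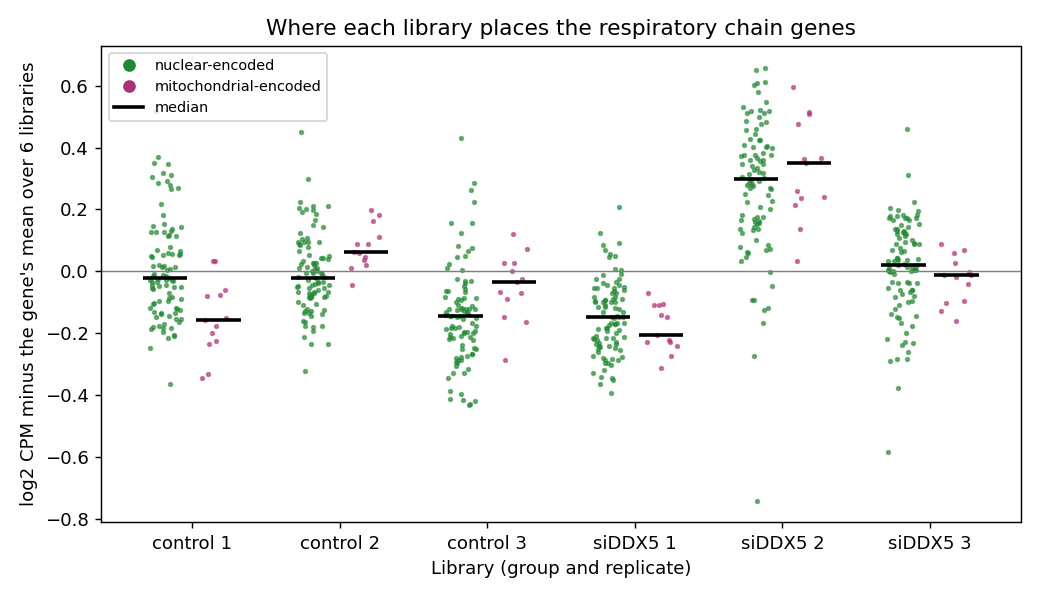
Log2 CPM of each tested member minus its mean over the 6 libraries (vertical axis), by library (horizontal axis); green points are 95 nuclear genes, purple points 13 mitochondrial genes, and black lines the medians. Both sets lie highest in siDDX5 replicate 2, at medians of 0.30 and 0.35, and are lower in the other 5 libraries.

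The mitochondrial genes were by far the more abundant. Together the 13 genes took 4.18%, 4.74% and 4.37% of all estimated counts in control replicates 1 to 3 and 4.09%, 5.40% and 4.40% in siDDX5 replicates 1 to 3. The 100 nuclear members took 0.621%, 0.614% and 0.553% in control and 0.573%, 0.722% and 0.623% in siDDX5 libraries. Both shares were highest in siDDX5 replicate 2, and both overlapped between groups. These are levels of RNA in poly(A)-selected libraries of bulk cultures, where fewer cells expressing a gene and less of its RNA per cell cannot be told apart.

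The balance between the genomes did not separate the groups. Per length, as summed TPM (counts scaled by effective length to the same total in every library), the nuclear members came to 16204, 15847 and 14831 in control and 15270, 18620 and 16727 in siDDX5 libraries. The mitochondrial sum was 101997, 118033 and 113613 in control and 104094, 129467 and 110840 in siDDX5. The log2 ratio of nuclear to mitochondrial TPM was -2.65, -2.90 and -2.94 in control and -2.77, -2.80 and -2.73 in siDDX5. The means were -2.83 ± 0.15 and -2.76 ± 0.03 (SD, n = 3 each), and all 3 siDDX5 values lay within the control range.

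MT-CO1, the catalytic core of cytochrome c oxidase, had the most reads of all members in CPM, which is not scaled by length, at 12816, 12152 and 11778 CPM in control and 11620, 14539 and 12427.5 CPM in siDDX5 libraries. Its log2 fold change was 0.07, with a 95% interval from -0.23 to 0.37. The other mitochondrial cytochrome oxidase subunits, MT-CO2 and MT-CO3, had log2 fold changes of 0.03 and 0.18. MT-CO3 stood at 5576, 6360 and 6016 CPM in control and 5696, 8777 and 5896 CPM in siDDX5 libraries, so that siDDX5 replicate 2 alone lay above the control range.

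MT-CYB, the only complex III subunit of mitochondrial DNA, stood at 4345, 4519 and 4330 CPM in control and 3626, 5007 and 3803 CPM in siDDX5 libraries. Here 2 of 3 siDDX5 libraries were below the controls and replicate 2 was above them, with a log2 fold change of -0.09. Among the 7 mitochondrial genes of complex I, MT-ND1 and MT-ND3 had the highest estimates, both 0.31, and MT-ND4L the lowest, -0.10. MT-ND1 read 2459, 3052 and 2353 CPM in control and 2736, 4342 and 2676 CPM in siDDX5 libraries (edgeR adjusted p = 0.591). MT-ND3 read 485, 641 and 556 CPM in control and 571, 881 and 627 CPM in siDDX5 (edgeR adjusted p = 0.540). In both genes the siDDX5 library exceeded the control library of the same number in each of the 3 pairs, but the groups overlapped.

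MT-ND6 is the member encoded on the opposite strand, at positions 14149 to 14673 of the mitochondrial chromosome. Its level was 667, 877 and 825 CPM in control and 761, 1069 and 892 CPM in siDDX5 libraries, a log2 fold change of 0.20 (edgeR adjusted p = 0.658). Set against the summed CPM of the other 12 mitochondrial genes it made up 1.60%, 1.93% and 1.94% in control and 1.93%, 1.94% and 2.08% in siDDX5 libraries. Apart from control replicate 1, this percentage ran from 1.93% to 2.08%. How evenly poly(A) selection captured MT-ND6 and the other mitochondrial RNAs was not tested, so the percentage need not reflect the balance of the strands. Libraries were made with a stranded kit, but whether strand was used in quantification is not given in the sources used here.

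Both ATP synthase genes of mitochondrial DNA were close to 0 change. MT-ATP6 had a log2 fold change of 0.08, and MT-ATP8 of 0.02. MT-ATP8 shows how the unit sets the order of levels. At 259 CPM it was the least counted of the 13, but its 207 bases leave an effective length of only 35.1 to 36.8 bases, so its TPM averaged 10840, the fifth highest. By counts per kilobase of full length it was again the lowest of the 13, and MT-CO3 and MT-CO1 were the highest, at 8147 and 8142 CPM per kilobase. The bases it shares with MT-ATP6, printed above, add to this uncertainty.

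**Figure D3:**
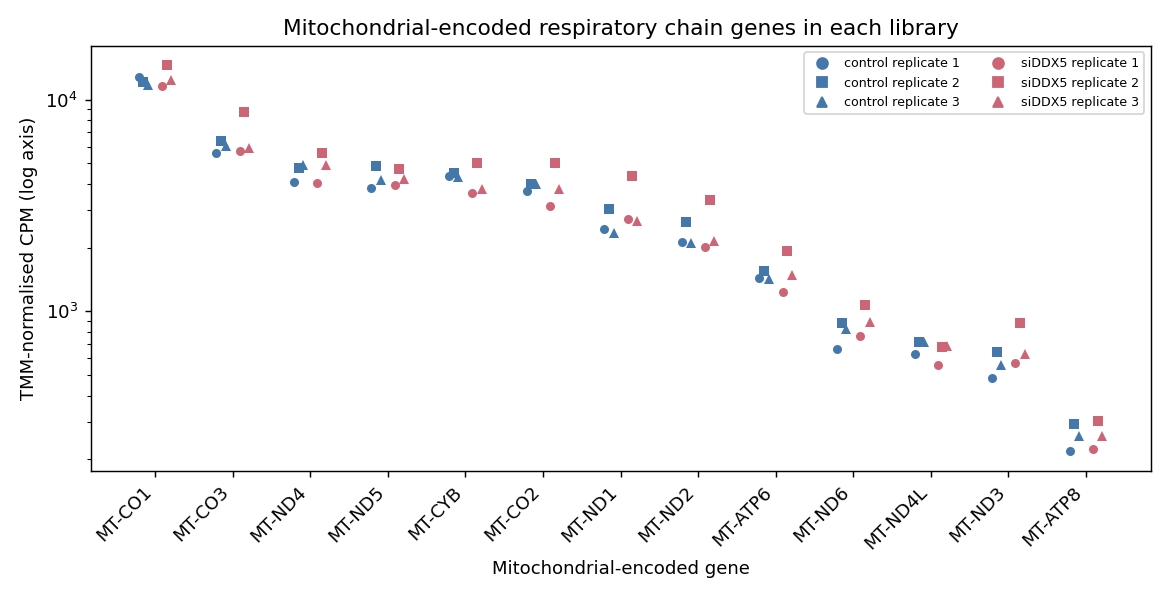
TMM-normalised CPM on a log axis (vertical) for the 13 mitochondrial genes (horizontal), with a point per library; blue marks control, red siDDX5, and the marker shape the replicate. Levels span from 259 CPM for MT-ATP8 to 12555 CPM for MT-CO1 on average, and in most genes the red square, siDDX5 replicate 2, is the highest point.

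Complex I had the widest spread of nuclear estimates. Of the 40 nuclear genes counted under it by name, 26 were above 0 and 14 below, with a median log2 fold change of 0.08. These take in NDUFA4, now assigned to complex IV, its paralog NDUFA4L2 and the readthrough NDUFC2-KCTD14. The 7 core subunits, which carry the redox centres, had a median of 0.01. The 32 genes counted as accessory subunits, NDUFA4 and NDUFA4L2 among them, had a median of 0.10. The lowest estimate was that of NDUFS8, a core subunit that holds iron-sulfur clusters (ENSG00000110717.12, chr11:68030617-68036644 on the plus strand of GRCh38). It stood at 47.8, 38.3 and 35.1 CPM in control and 26.1, 36.6 and 22 CPM in siDDX5 libraries, with means of 40.4 ± 6.65 and 28.2 ± 7.52 CPM (SD, n = 3 each). On the log2 scale this was a change of -0.52 (standard error 0.19, edgeR adjusted p = 0.355). Each siDDX5 library was below the control library of its number, but siDDX5 replicate 2 lay above control replicate 3.

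NDUFA10, an accessory subunit of complex I on the matrix side (ENSG00000130414.11, chr2:239892450-240025402, minus strand), had the smallest p of all members. Its level was 39.3, 42.6 and 36.6 CPM in control and 29.4, 33.4 and 28.3 CPM in siDDX5 libraries, and the groups did not overlap. This was a log2 fold change of -0.38 (standard error 0.12, edgeR adjusted p = 0.274). It was called under a single setting, the replicate block with the length trend removed, at an edgeR adjusted p of 0.0399. The share of all genes called under that setting is not given here, so the call cannot be read against it. NDUFA10 counts were spread over many isoforms, and an isoform annotated as a retained intron took 30.6 ± 3.34% of them in control and 32.5 ± 3.52% in siDDX5 libraries (SD, n = 3 each).

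NDUFA4L2 and NDUFV3 were the other members with every siDDX5 library below every control library, 3 of 108 in all, against 9.22% of all genes. NDUFV3, an accessory subunit of the NADH-oxidising arm, read 30.3, 26.2 and 24.7 CPM in control and 23.9, 22.9 and 20.1 CPM in siDDX5 libraries. NDUFA4L2, a paralog of NDUFA4 known from hypoxic cells, read 5.56, 6.52 and 8.08 CPM in control and 5.48, 4.76 and 5.28 CPM in siDDX5, with a log2 fold change of -0.38. NDUFA4 itself, now assigned to complex IV, was far higher, at 141 CPM on average, and its log2 fold change was 0.24 (edgeR adjusted p = 0.514).

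At the other end, NDUFB3 was the only member with every siDDX5 library above every control library, against 8.87% of all genes. This accessory subunit of the membrane arm read 22.8, 21.7 and 21.2 CPM in control and 23, 33.2 and 27.8 CPM in siDDX5 libraries, so replicate 1 cleared the control range by little. Its log2 fold change was 0.35 (edgeR adjusted p = 0.417). The highest estimates among complex I genes were those of NDUFA2 (0.40) and NDUFAB1 (0.39), the latter the mitochondrial acyl carrier protein. NDUFA2 read 17.0, 19.8 and 15.5 CPM in control and 17.8, 28.5 and 22.8 CPM in siDDX5, and NDUFAB1 reached 47.4 CPM in siDDX5 replicate 2 against at most 31.6 CPM elsewhere. By TPM, NDUFS5 was the most abundant nuclear complex I gene, at 661 TPM, with a log2 fold change of 0.24.

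The 8 NDUFAF assembly factors were low, with between 7.45 CPM (NDUFAF8) and 35.7 CPM (NDUFAF5) on average. Their log2 fold changes ran from -0.04 for NDUFAF6 to 0.30 for NDUFAF8, with 7 of 8 above 0. NDUFAF8 read 6.65, 8 and 5.36 CPM in control and 6.62, 10.7 and 7.43 CPM in siDDX5 libraries (edgeR adjusted p = 0.652). NDUFAF2, the highest by TPM, had an estimate of 0.12, which became -0.04 without control replicate 3.

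In complex II the estimates ran from -0.03 to 0.26, and no gene passed the test. SDHA, the flavoprotein that oxidises succinate, had a log2 fold change of -0.03, SDHB, the iron-sulfur subunit, 0.15, and the membrane anchors SDHC and SDHD -0.02 and 0.26. SDHD read 60.05, 68.3 and 57.9 CPM in control and 62.3, 86.0 and 75.0 CPM in siDDX5 libraries (edgeR adjusted p = 0.504). Its promoter, shown above, held both an NRF1 and an ETS match. SDHA is uncertain in level, since reads can be split between it and its 3 named pseudogenes, chiefly SDHAP1. Of the counts of gene and pseudogenes together, the pseudogenes held 27.0% in control and 22.3% in siDDX5 libraries on average.

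Complex III had the highest median of the nuclear groups, 0.24, with 9 of 10 genes above 0. CYC1, the cytochrome c1 subunit, read 63.0, 50.8 and 43.2 CPM in control and 54.9, 76.8 and 58.7 CPM in siDDX5 libraries, a log2 fold change of 0.28 (edgeR adjusted p = 0.571). UQCRB, which lies near the ubiquinone site, read 47.4, 56.2 and 51.9 CPM in control and 52.9, 69.2 and 63.6 CPM in siDDX5, a log2 fold change of 0.26 (edgeR adjusted p = 0.489). The core proteins UQCRC1 and UQCRC2 differed, at -0.13 and 0.10, and neither passed the test. The sign of UQCRC1 rested on control replicate 1, at 143 CPM against 102 to 107 CPM in the other controls, and without that library its estimate was 0.04. UQCRHL, a near copy of the hinge gene UQCRH, had the highest estimate of all members (0.49), but at 1.02 CPM against 122 CPM for UQCRH, from which reads may be misassigned.

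Cytochrome c oxidase showed which of its isoforms these cells used. Of the paralog pairs, COX4I1 (92.8 CPM), COX6A1 (89.3), COX6B1 (63.7), COX7A2 (32.8), COX7B (119) and COX8A (53.5) were expressed. The alternative forms COX4I2, COX6A2, COX7B2 and COX8C had at most 1 estimated count in any library and could not be tested. COX6A2 and COX7A1 are known as the forms of heart and skeletal muscle, and COX7A1 averaged 0.68 CPM in this muscle-lineage line. COX6B2, known from testis, averaged 1.39 CPM. With so few counts their intervals were wide, from -0.93 to 0.58 on the log2 scale for COX7A1 and from -1.08 to 0.55 for COX6B2.

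Among the expressed subunits of complex IV, COX5A and COX7A2L had the highest log2 fold changes, 0.32 and 0.31. COX7A2L, which takes part in joining complexes III and IV into supercomplexes, read 96.1, 106 and 93.6 CPM in control and 102, 147 and 119 CPM in siDDX5 libraries (edgeR adjusted p = 0.439). COX5A read 46.4, 46.4 and 40.2 CPM in control and 46.4, 67.1 and 52.4 CPM in siDDX5 (edgeR adjusted p = 0.454). In both, siDDX5 replicate 1 lay within the control range. COX8A varied widely within both groups, at 78.2, 44.4 and 42.3 CPM in control and 44.2, 72.2 and 39.5 CPM in siDDX5. Its estimate of -0.08 became 0.27 without control replicate 1.

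For the ATP synthase, 16 of 20 tested ATP5 genes were above 0, with a median of 0.17. ATP5F1B and ATP5F1A, the beta and alpha subunits of the catalytic F1 head, were the most counted nuclear members, at 489 and 355 CPM, and their log2 fold changes were 0.13 and 0.17. ATP5F1E, the small epsilon subunit of F1, read 81.9, 87.5 and 76.8 CPM in control and 87.1, 133 and 102 CPM in siDDX5 libraries. Its log2 fold change was 0.38 (edgeR adjusted p = 0.383), and siDDX5 replicate 1 fell within the control range. ATP5ME, a membrane subunit, had the highest estimate of the group, 0.41, with 19.5, 21.4 and 15.8 CPM in control and 18.8, 32.3 and 24.1 CPM in siDDX5 (edgeR adjusted p = 0.486).

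ATP5IF1, the inhibitor that blocks ATP hydrolysis by the enzyme, had the lowest estimate of the ATP5 genes, -0.22. It read 40.7, 41.5 and 43.0 CPM in control and 31.1, 40.7 and 35.4 CPM in siDDX5 libraries (edgeR adjusted p = 0.532). Only siDDX5 replicate 2 touched the control range, and it did so at its lower edge. The readthrough ATP5MF-PTCD1, which joins a subunit gene to its neighbour, followed at -0.21 and 7.51 CPM on average. ATP5MF itself was the highest nuclear member by TPM, at 825 TPM, although it had only 81.7 CPM, with 42.8% of its control counts on an isoform of 305 bases. ATP5MGL, a copy of ATP5MG, had 5.16 to 11.86 counts a library and was not tested.

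**Figure D4:**
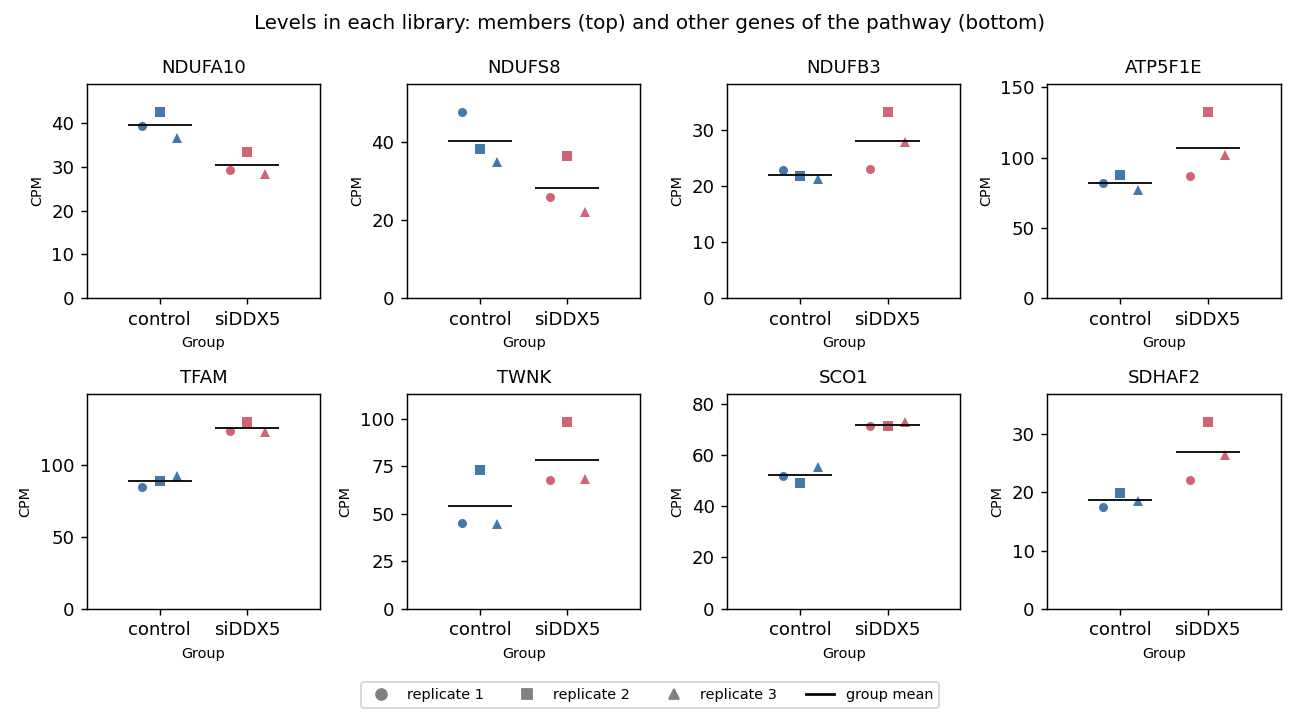
CPM in each library (vertical axes, from 0) by group (horizontal axes) for 4 members in the upper row and 4 other genes of the pathway in the lower row; marker shape gives the replicate and bars the group mean. NDUFA10 and the lower-row genes TFAM, SCO1 and SDHAF2 do not overlap between groups, whereas TWNK, NDUFS8 and ATP5F1E do.

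Genes that serve the chain without being part of it were examined from 4 further lists. Of 33 genes for mitochondrial RNA and DNA synthesis and RNA processing, 0 passed without the replicate block. With it 2 were higher and 0 lower, where 1.14% of all genes were called higher and 1.45% lower. TFAM, which packages mitochondrial DNA and starts its transcription, read 84.2, 88.3 and 92.2 CPM in control and 123, 129 and 123 CPM in siDDX5 libraries. All 3 siDDX5 libraries lay above all controls, with a log2 fold change of 0.50, an edgeR adjusted p of 0.0781 without the block and 0.0174 with it, and DESeq2 without the block also called it, at an adjusted p of 0.000671. TWNK, the mitochondrial replicative helicase, read 45.1, 73.1 and 44.5 CPM in control and 67.7, 98.3 and 68.5 CPM in siDDX5. It was higher in each pair, with a log2 fold change of 0.53 and edgeR adjusted p values of 0.398 and 0.0139. POLRMT, the mitochondrial RNA polymerase, had a log2 fold change of -0.12, which became 0.14 with length-scaled counts. The mitochondrial mRNAs themselves had the small estimates given above.

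Of 40 further assembly factors, 0 passed without the block and 2 were higher with it, again beside 1.14% of all genes. SCO1, which delivers copper to cytochrome c oxidase, read 51.8, 49.0 and 55.2 CPM in control and 71.4, 71.2 and 72.8 CPM in siDDX5 libraries. Its log2 fold change was 0.47, with edgeR adjusted p values of 0.103 without and 0.0238 with the block, and DESeq2 called it without the block at an adjusted p of 0.00472. Here siDDX5 replicate 2 did not stand apart. SDHAF2, which attaches the flavin to SDHA, read 17.5, 19.9 and 18.6 CPM in control and 22.2, 32.1 and 26.5 CPM in siDDX5. Its log2 fold change was 0.53, with edgeR adjusted p values of 0.243 and 0.0456. SDHA, its client, had a log2 fold change of -0.03, and the difference between these genes was not tested.

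Of the 12 nuclear regulators of respiratory genes 11 were tested and 0 passed with or without the block. NRF1 read 24.5, 25.7 and 21.5 CPM in control and 24.7, 27.0 and 24.4 CPM in siDDX5 libraries, a log2 fold change of 0.09. GABPA, the DNA-binding subunit of GABP, had a log2 fold change of -0.03, and YY1 one of 0.18. The coactivator PPARGC1A stood near 1 CPM in both groups, from 0.719 to 1.53 CPM. Of 16 genes for electron carriers, 0 passed in either fit. CYCS, cytochrome c itself, read 268, 222 and 313 CPM in control and 292, 412 and 365 CPM in siDDX5, a log2 fold change of 0.41 (edgeR adjusted p = 0.369).

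Grouped by the promoter motifs, the members' median log2 fold changes ran from -0.12 to 0.19. The median log2 fold change was 0.08 for the 11 with an NRF1 match (8 above 0), 0.19 for the 10 with an ETS match (9 above 0) and -0.12 for the 8 with a YY1 match (3 above 0). For the 49 tested members with none of the 3 it was 0.16, with 36 above 0. The groups share members, and all 3 ranges with a match lay within that of the members without one, -0.52 to 0.40, but for ATP5ME at 0.41. A range over 49 genes tends to be wider than one over 8 to 11, so this does not show whether the groups differ. These are descriptions of letters in a window, with no test.

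Transcript usage, the division of a gene's counts among its isoforms, was a separate readout of the same genes. Of 85 members with more than 1 isoform tested, 0 were called, against 1.59% of 10704 genes, and 0 were called with the replicate block. At an unadjusted p under 0.05 there were 2, ATP5PB and NDUFB5, with edgeR adjusted p values of 0.30 and 0.42.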

How the data were processed

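Messenger RNA of 6 Rh30 libraries was examined, 3 control and 3 siDDX5, grouped by their titles. The kit was a stranded mRNA kit, per the labels' protocols. Per the submitters' processing notes, the tools were bcl2fastq 2.20, FastQC 0.11.8, cutadapt 1.11 and kallisto 0.46.0, with GRCh38; the transcript annotation is not given in the sources used here. The deposited tables hold, for each of 188753 transcripts, an estimated count, not normalized, and a TPM value, scaled for effective length by the authors.

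Transcripts were joined to GENCODE release 29 by identifier (169797), by gene symbol (15315) or by their place in the table inside a run of the same gene (890). The other 2751 were not used here. Between 99.59% and 99.63% of counts were joined. The gene sums of counts were rounded. In edgeR 4.0.16 (R 4.3.3), low genes were removed by filterByExpr, TMM set the library scale, and glmQLFit with glmQLFTest compared the groups, the only term. P values were adjusted by the Benjamini-Hochberg method over all 15223 genes tested, and the threshold was 0.05. Usage was tested with diffSpliceDGE. CPM is TMM-normalised, and intervals are at 95%. Depths were 26156858, 21265569 and 24229578 counts in control replicates 1 to 3 and 19971888, 19282386 and 18202402 in siDDX5 replicates 1 to 3. A floor of 3 counts was 0.115 to 0.165 CPM, which covers counting error only.

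Same-numbered libraries deviated together from their group means: the correlations over genes were 0.21, 0.27 and 0.58 for replicates 1, 2 and 3. Between control and siDDX5 libraries of different numbers they ran from -0.35 to 0.08. The deviations of the 3 libraries of a group sum to 0 for each gene, so positive same-numbered values pull the other values down. The values between different numbers are therefore no separate support for the pairs. The replicate numbers come from the titles and were accepted as pairs because each same-numbered correlation exceeded 0.1. A fit with the replicate block was therefore run, on the same data that served to accept the pairs. Alternatives were DESeq2 size factors, the DESeq2 1.42.0 Wald test, other count filters, length-scaled TPM counts, limma-trend (limma 3.58.1) on log2(TPM + 1) and log2(TPM + 0.1), mitochondrial genes left out of library sizes, GC and length trends removed with and without the block, the identifier join alone, and each library left out. For the other gene lists and for genes outside the rule these settings were chosen after seeing the data.

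The members, the gene lists and the tests were chosen with earlier results of these data known. Named genes were all 13 mitochondrial genes, complex II, CYC1, the isoform pairs, in each gene group the member highest in TPM and, among those with at least 5 CPM, the 2 highest and 2 lowest log2 fold changes, and members of the other lists called in either fit. Other names were chosen after their values were seen. Promoter windows come from the RefSeq table of GRCh38.p14. The steps were checked on simulated counts.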

Additional observations from a re-analysis of the deposited data

How the results depend on the processing

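The counts of 0 called members, nuclear and mitochondrial, held under every alternative but the replicate block with the length trend removed, where 1 nuclear member (NDUFA10, log2 fold change -0.37) was called. The share of all genes called under that setting is not given here, so this call cannot be read against it. With the replicate block alone the medians were 0.13 for the nuclear and 0.07 for the mitochondrial members. Leaving out each library gave nuclear medians of 0.02 to 0.23 and mitochondrial medians of -0.07 to 0.20, the lowest without siDDX5 replicate 2. The nuclear minus mitochondrial difference, 0.07, ran from 0.03 to 0.11. Usage calls were 2 with no filter (ATP5MC2 and COX7B), where 2.55% of all genes tested were called. With a library left out they were from 0 to 1, where 1.98% to 4.11% of all genes tested were called. These were NDUFB5 without control replicate 1, COX7B without control replicate 3 and ATP5F1A without siDDX5 replicate 1.

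For the other lists, whose alternatives were added after the data were seen, the DESeq2 Wald test called 1 gene for mitochondrial RNA synthesis (TFAM) and 1 assembly factor (SCO1). It called 2.99% of all genes with an adjusted p. With the replicate block the calls were 2 and 2, where 2.59% of all genes were called. With the GC trend removed as well the list calls were 3 and 3, and 2 for the electron carriers (COQ9 and HCCS). With the replicate block and the length trend removed they were 4, 3 and 3. The share of all genes called with a trend removed is not given here, so these counts cannot be read against it. Under all other settings run, leaving out each library included, these 4 lists had 0 calls.

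Of 1255 pairs of a named gene and a setting, 1187 kept direction and side of the threshold, 15 became calls (NDUFA10, TFAM, TWNK, SCO1 and SDHAF2) and 53 changed sign. With length-scaled counts COX7B was 0.15, SDHC 0.13 and POLRMT 0.14. In limma-trend with pseudocounts of 1 and 0.1 TPM, COX7B was 0.0806 and 0.081, and SDHC 0.0534 and 0.0538, and POLRMT 0.0663 and 0.0705. With either pseudocount MT-ATP8 was -0.0275, MT-CO2 -0.021 and MT-ND5 -0.0293. With the GC trend removed MT-ATP8 was -0.0077, and -0.0168 with the replicate block as well. With the length trend removed SDHC was 0.0483 and MT-ND5 -0.0108, and 0.026 and -0.0046 with the replicate block as well, where GABPA was 0.0052. The cause was not tested.

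Leaving out each library in turn also changed signs. Log2 fold changes ran for COX4I1 from -0.006 to 0.23, COX6B1 from -0.0262 to 0.34, COX6B2 from -0.50 to 0.0669, COX7B from -0.14 to 0.043, COX8A from -0.39 to 0.27 and for MT-ATP6 from -0.11 to 0.22. They ran for MT-ATP8 from -0.099 to 0.14, MT-CO1 from -0.0268 to 0.14, MT-CO2 from -0.17 to 0.18, MT-CO3 from -0.0462 to 0.30, MT-CYB from -0.24 to 0.0033 and for MT-ND2 from -0.13 to 0.27. They ran for MT-ND4 from -0.0387 to 0.20, MT-ND5 from -0.0653 to 0.11, NDUFAF2 from -0.0407 to 0.27, NDUFAF3 from -0.0126 to 0.35, NDUFAF6 from -0.12 to 0.0588 and for NDUFAF7 from -0.0318 to 0.10. They ran for SDHA from -0.0937 to 0.0319, SDHC from -0.11 to 0.0849, UQCRC1 from -0.26 to 0.0417 and for GABPA from -0.11 to 0.0375.

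The depth leaves genes near 1 CPM (UQCRHL, COX6B2, COX7A1) with wide intervals, and a p that misses the threshold does not show equal levels. Sharing of reads with pseudogenes or overlapping genes adds an uncertainty for which the tables hold no estimate.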
